A study of Saccharomyces cerevisiae with 18 samples.

Results

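Aminoacyl-tRNA synthetases are the enzymes that join each amino acid to its transfer RNA (tRNA) before translation. Yeast keeps separate sets for the cytosol and for the mitochondrion, both made from nuclear genes. A few genes serve both compartments by giving a protein with and a protein without a mitochondrial targeting sequence, among them HTS1, VAS1, GRS1 and ALA1. The general amino acid control pathway reads how well tRNAs are charged: the kinase Gcn2 senses uncharged tRNA, and the transcription activator Gcn4 then raises genes of amino acid synthesis.

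The genes described here were the 34 synthetase genes on a fixed list of symbols, found by the gene name that the platform annotation gives to each probe set. Each of the 34 had 1 probe set, out of 5763 probe sets tested. They comprised 21 cytosolic genes, the 4 dual-targeted ones included, and 13 mitochondrial genes. For 14 of the cytosolic genes the list held a mitochondrial gene for the same amino acid.

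Cultures of the diploid yeast strain BY4743 in log phase were given 1 of 6 aqueous extracts of the plant Equisetum arvense, or the vehicle alone, and RNA was taken after 20 min. The extracts, all at 2.5 mg/mL, were USA #2, USA #6, USA #7, China #8, Europe #11 and India #13, with 2 arrays each except China #8, which had 4, and the vehicle control had 4. All 7 conditions shared the strain's genotype, which treated cultures and controls carried alike: both copies of URA3, LEU2 and HIS3 are mutant (ura3∆0, leu2∆0 and his3∆1), and 1 copy each of LYS2 and MET15 is deleted (lys2∆0 and met15∆0). The minimal medium carried added uracil. The 18 arrays gave log2 signals, and a difference of 1 on this scale is a doubling.

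As a check of the strain, the probe sets of LEU2 and URA3, which BY4743 lacks, stood at percentiles 2.48 and 1.09 of all tested probe sets. HIS3, of which the strain keeps a part, stood at percentile 82.2. The titles carry 2 dates, and what a date marks is not stated. The earlier date covers 2 China #8 and 2 control arrays and the later date the other 14 arrays. The 2 China #8 and 2 control arrays of the later date stood apart in the 3′ minus 5′ difference of the 18S rRNA control probes, at −1.54 to −1.12 log2 against −2.85 to −2.08 in the other 14 arrays. The counts of synthetase genes called per extract, over all extracts and in the F-test are therefore also given without those 4 arrays. Other counts, such as those by enzyme class, by pair and of the other gene lists, were not taken without them. The part of the 18S difference in any result was not tested. Quantile normalization makes the arrays' distributions equal, so every change is relative to the rest of the transcriptome.

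The cytosolic and the mitochondrial genes moved apart most clearly with China #8. There, 15 of 21 cytosolic genes rose and 1, GRS2, fell, while no mitochondrial gene rose and 6 of 13 fell. Here a gene is said to have risen or fallen where limma's adjusted p (Benjamini-Hochberg over all 5763 probe sets) was under 0.05. Of all tested probe sets, 19.7% rose and 19.9% fell with China #8. The median log2 fold change was 0.27 over the cytosolic genes and −0.25 over the mitochondrial genes, beside 0.00 over all probe sets tested. The compartments also differed in signal level. By mean signal the mitochondrial genes stood at percentiles 17.3 to 70.3 of all tested probe sets. The cytosolic genes stood at 84.6 to 95.9, apart from GRS2 at 22.4. Compartment and signal level can thus hardly be told apart here, and the part of signal level was not tested. With only the earlier dated China #8 and control arrays kept, 14 cytosolic genes rose, 1 fell and 8 mitochondrial genes fell, beside 38.4% of all probe sets called. The later dated arrays of the other extracts stayed in that fit and entered the estimate of the spread. Within the later dated arrays alone 8 cytosolic genes rose and 4 mitochondrial genes fell, beside 29.3%. All 22 genes that passed with both dates together had the same direction in each date's arrays, and 11 of them passed in both. The fold change with both dates is the mean of the fold changes in each date. These genes were thus chosen on the same arrays, and the shared direction is no separate test of them. The matching shares over all probe sets were not taken.

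Europe #11 raised 8 cytosolic genes, beside 12.3% of all probe sets, and lowered none, beside 9.89%. No mitochondrial gene passed with Europe #11 in either direction. The genes that rose were YHR020W, FRS1, FRS2, TYS1, KRS1, DED81, WRS1 and HTS1. India #13 raised 6 of these, all but FRS1 and WRS1, beside 14.1% of all probe sets, and again lowered none, beside 14.4%. The seryl-tRNA synthetase gene SES1, at −0.23 with Europe #11 and −0.21 with India #13, did fall with both extracts with the later dated arrays alone, with the title date or title number as a block, with the trended, robust prior and without control replicate 1, and with Europe #11 also under equal array medians. Without Europe #11 replicate 1 the count for that extract was 1, without replicate 2 it was 3 and without control replicate 2 it was 5. Without India #13 replicate 2 that extract's count was 0, and without control replicate 2 it was 3.

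With the USA extracts, the counts over all 34 genes lay near or below the shares of all probe sets. USA #7 raised YHR020W and HTS1, lowered the cytosolic genes DPS1, SES1 and GRS2, and lowered the mitochondrial genes MSF1, ISM1, MSD1 and NAM2, beside 20.4% of all probe sets higher and 18.9% lower. USA #2 raised YHR020W and lowered the same 4 mitochondrial genes, beside 10.5% of all probe sets higher and 8.36% lower. USA #6 raised YHR020W and lowered none, beside 4.08% higher and 2.88% lower. The 9 calls with USA #7 fell to 3 without its replicate 2. The 5 calls with USA #2 fell to 1 without its replicate 1 and to 0 without its replicate 2, and the single call with USA #6 was lost without its replicate 1 and became 4 calls without control replicate 3.

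**Figure D1:**
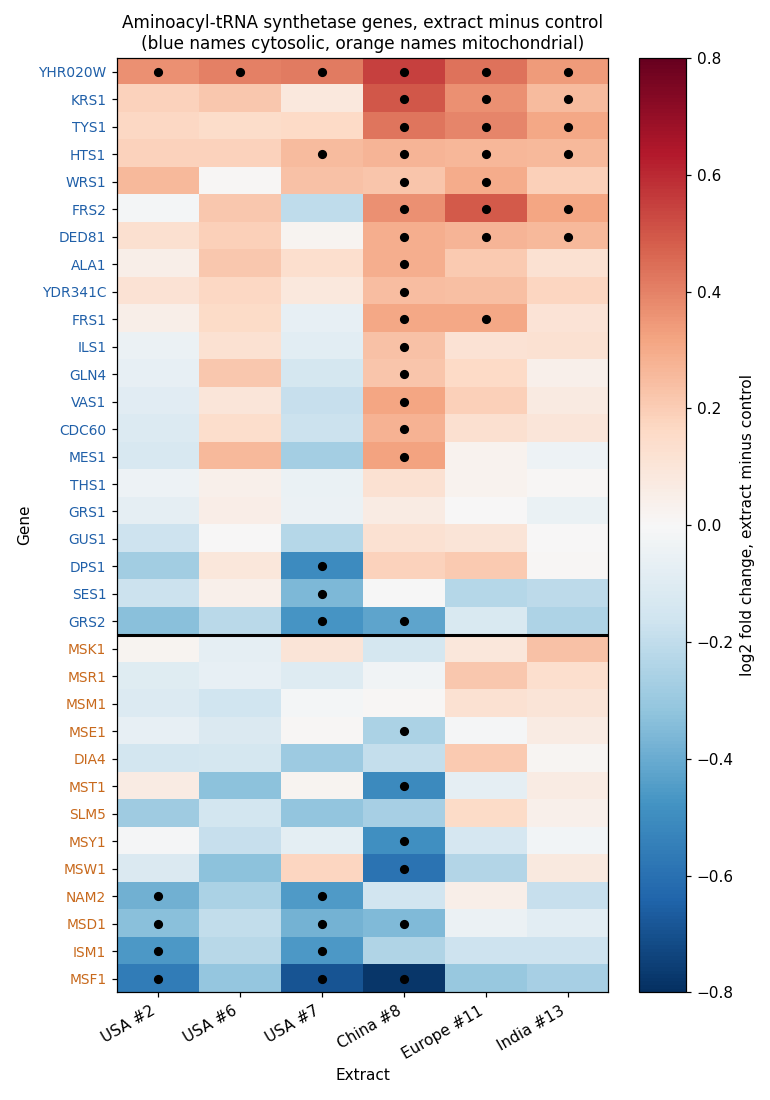
Each row is a synthetase gene and each column an extract. Colour gives the log2 fold change of extract minus control (red higher, blue lower), a dot marks an adjusted p under 0.05 (limma), and the line parts the 21 cytosolic genes above from the 13 mitochondrial genes below. YHR020W has a dot in all 6 columns, and every dot among the mitochondrial genes lies on a blue cell.

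Without the 4 arrays that stood apart in 18S rRNA, 7 of the 34 genes passed with USA #2, beside 19.8% of all probe sets, 4 with USA #6 (12.6%), 11 with USA #7 (38.2%), 10 with Europe #11 (21.9%) and 5 with India #13 (27.3%). With the later dated arrays alone more probe sets passed overall: 6 of the 34 genes did with USA #2, beside 34.9% of all probe sets, 1 with USA #6 (17.0%), 12 with USA #7 (48.8%), 8 with Europe #11 (36.7%) and 7 with India #13 (42.1%). In that fit 1 cytosolic gene rose and 6 fell with USA #7. Neither fit gives these extracts a control alike in both date and 18S rRNA. Without the 4 arrays, the control arrays left were all of the earlier date and those of these extracts all of the later date. Extract and title date cannot be told apart there. With the later dated arrays alone, both control arrays were among the 4 that stood apart.

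China #8 had 4 arrays where the other extracts had 2, so its standard errors were smaller and its number of calls cannot be set against theirs. All 6 comparisons also share the same 4 control arrays. The median log2 fold change over the cytosolic genes was −0.04 with USA #2, 0.14 with USA #6, −0.06 with USA #7, 0.21 with Europe #11 and 0.11 with India #13. Over the mitochondrial genes it was −0.12 with USA #2, −0.18 with USA #6, −0.10 with USA #7, −0.01 with Europe #11 and 0.04 with India #13. The cytosolic median was above the mitochondrial one with every extract, though with USA #7 and India #13 this order turned when only the later dated arrays were used (cytosolic minus mitochondrial −0.06 and −0.05 log2). It also turned for USA #7 without control replicate 1 (−0.03) and for India #13 without India #13 replicate 2 (−0.07).

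Array by array, the cytosolic median minus the mitochondrial median, each gene measured from its control mean, ran from −0.07 to 0.62 log2 over the 14 extract arrays, with a median of 0.29, against −0.13 to 0.16 over the 4 control arrays. It was 0.53, 0.62, 0.46 and 0.38 on the China #8 arrays and 0.35 and 0.33 on the USA #6 arrays. These 6 arrays lay above every control array, as did replicate 2 of Europe #11 and of India #13. The control arrays are part of the mean from which they are measured, which narrows their span. The 2 arrays of an extract did not always match: the difference was 0.11 and 0.32 with Europe #11 and −0.07 and 0.25 with India #13. With USA #2 it was 0.07 and 0.11 and with USA #7 0.06 and 0.12, within the span of the control arrays.

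**Figure D2:**
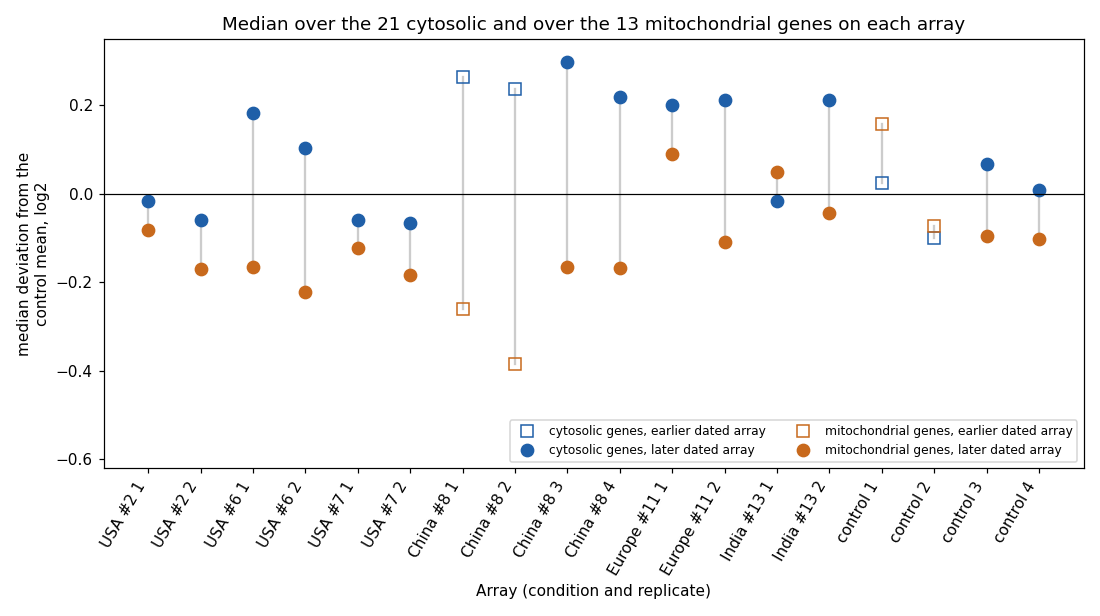
For each of the 18 arrays (extracts left, control right), the points give the median deviation from the control mean, in log2, over the 21 cytosolic genes (blue) and the 13 mitochondrial genes (orange), with open squares for earlier and filled circles for later dated arrays. The grey line joins both medians of an array and is longest on China #8 replicate 2, at 0.62.

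Among the cytosolic genes, YHR020W, which encodes the prolyl-tRNA synthetase, was the only synthetase gene that rose with all 6 extracts. Its log2 signal was 12.46 and 12.44 with USA #2, 12.54 and 12.43 with USA #6, 12.44 and 12.56 with USA #7, 12.66, 12.65, 12.67 and 12.54 with China #8, 12.49 and 12.55 with Europe #11 and 12.34 and 12.51 with India #13, against 12.11, 11.99, 12.15 and 12.09 in control. Every extract array lay above every control array. The log2 fold changes ran from 0.34 ± 0.08 with India #13 (adjusted p = 0.00531) to 0.55 ± 0.06 with China #8 (SE, adjusted p = 1.64e-05, limma), or 1.26-fold to 1.46-fold. An F-test among the 6 extracts did not find that they differed in YHR020W (adjusted p = 0.216). The rise lost its call with USA #2 without either of its arrays, with USA #6 without its replicate 1 and with India #13 without its replicate 2. In the RefSeq annotation of assembly R64, YHR020W is the neighbour of DED81 on chromosome VIII, and their locus names place them on opposite strands.

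DED81, the asparaginyl-tRNA synthetase gene, rose with China #8 (0.29 ± 0.06), Europe #11 (0.27 ± 0.08) and India #13 (0.26 ± 0.08). With USA #2, USA #6 and USA #7 its log2 fold changes were 0.13, 0.19 and 0.02.

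The lysyl-tRNA synthetase gene KRS1 and the tyrosyl-tRNA synthetase gene TYS1 rose with China #8, Europe #11 and India #13. KRS1 had log2 signals of 12.50 and 12.51 with USA #2, 12.57 and 12.50 with USA #6, 12.34 and 12.47 with USA #7, 12.82, 12.70, 12.88 and 12.87 with China #8, 12.68 and 12.69 with Europe #11 and 12.48 and 12.67 with India #13, against 12.37, 12.15, 12.33 and 12.43 in control. Its highest values were those with China #8, and of the extract arrays only USA #7 replicate 1 lay among the controls. The change was 0.50 ± 0.07 with China #8, a 1.41-fold rise (adjusted p = 0.000115, limma), 0.37 ± 0.09 with Europe #11 and 0.25 ± 0.09 with India #13.

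TYS1 stood at 12.65 and 12.65 with USA #2, 12.64 and 12.60 with USA #6, 12.60 and 12.68 with USA #7, 12.96, 12.84, 12.94 and 12.89 with China #8, 12.88 and 12.86 with Europe #11 and 12.73 and 12.85 with India #13, against 12.59, 12.40, 12.36 and 12.57 in control. All 14 extract arrays lay above all 4 control arrays, the USA arrays by the least. The change was 0.43 ± 0.06 with China #8 (adjusted p = 0.000148, limma), 0.39 ± 0.08 with Europe #11 and 0.31 ± 0.08 with India #13, while the 3 USA extracts gave 0.14 to 0.17 and did not pass. Both genes differed among the extracts in the F-test (adjusted p = 0.0241 for KRS1 and 0.0341 for TYS1).

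HTS1, whose products are the histidyl-tRNA synthetases of both compartments, had the smallest range of extract means among the 34 genes, 0.09 log2. Its log2 signal was 12.53 and 12.53 with USA #2, 12.56 and 12.50 with USA #6, 12.59 and 12.61 with USA #7, 12.73, 12.66, 12.58 and 12.52 with China #8, 12.63 and 12.59 with Europe #11 and 12.59 and 12.63 with India #13, against 12.34, 12.29, 12.54 and 12.22 in control. Control replicate 3 was the highest control array and overlapped the lowest extract arrays. The log2 fold change ran from 0.18 to 0.27, passing with USA #7, China #8, Europe #11 and India #13. Of the other dual-targeted genes, ALA1 (alanine, 0.29 ± 0.07) and VAS1 (valine, 0.32 ± 0.08) rose with China #8 alone, and GRS1 (glycine) with none. Leaving these 4 genes out, 12 of 17 cytosolic genes rose with China #8.

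The remaining cytosolic genes that rose did so with China #8, and some with Europe #11 as well. FRS1, which encodes the beta subunit of the phenylalanyl-tRNA synthetase, rose by 0.31 with both China #8 and Europe #11. WRS1, for tryptophan, rose by 0.22 with China #8 and by 0.30 with Europe #11. CDC60 (leucine), GLN4 (glutamine), ILS1 (isoleucine), MES1 (methionine) and YDR341C (arginine) rose with China #8 alone, by 0.22 to 0.32. By the fold of the enzymes, 8 of 9 class I and 7 of 12 class II cytosolic genes rose with China #8, and 2 of 9 and 6 of 12 rose with Europe #11.

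FRS2, the gene for the alpha subunit that pairs with Frs1, differed more between extracts than FRS1 did. Its log2 signals were 11.49 and 11.52 with USA #2, 11.76 and 11.71 with USA #6, 11.23 and 11.40 with USA #7, 12.05, 11.84, 11.87 and 11.78 with China #8, 12.06 and 11.96 with Europe #11 and 11.68 and 11.99 with India #13, against 11.70, 11.43, 11.48 and 11.48 in control. Both USA #7 arrays lay below the control arrays. All Europe #11, China #8 and USA #6 arrays lay above them, a USA #6 array by the least. FRS2 rose with Europe #11 (0.49 ± 0.10), China #8 (0.36 ± 0.09) and India #13 (0.32 ± 0.10), and the USA #7 value of −0.20 ± 0.10 did not pass. The extracts differed in FRS2 (F-test adjusted p = 0.00663), while FRS1 just missed the threshold (0.0505).

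DPS1, the aspartyl-tRNA synthetase gene, gave the lowest F-test p of all 34 genes (adjusted p = 0.00363). It was 12.04 and 11.94 with USA #2, 12.41 and 12.32 with USA #6, 11.62 and 11.92 with USA #7, 12.51, 12.36, 12.51 and 12.41 with China #8, 12.47 and 12.48 with Europe #11 and 12.13 and 12.42 with India #13, against 12.38, 12.12, 12.27 and 12.30 in control. The arrays with USA #2 and USA #7 lay below the control arrays. With USA #7 its log2 signal fell by 0.50 (SE 0.10, adjusted p = 0.00227, limma), whereas USA #2 gave −0.28 ± 0.10 and China #8 0.18 ± 0.09, neither past the threshold. SES1 likewise fell with USA #7 (−0.36 ± 0.08), and its values with Europe #11 and India #13 passed under some other settings only.

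GRS1 and GRS2 are paralogs, and Grs1 is the main glycyl-tRNA synthetase of growing cells. GRS2 read 8.20 and 8.04 with USA #2, 8.32 and 8.16 with USA #6, 8.05 and 7.91 with USA #7, 8.04, 7.79, 8.17 and 8.13 with China #8, 8.48 and 8.18 with Europe #11 and 8.11 and 8.30 with India #13, against 8.71, 8.35, 8.34 and 8.41 in control. Only a Europe #11 array reached the control values. GRS2 was thus the only cytosolic gene whose log2 fold change was below 0 with all 6 extracts, and it fell with USA #7 (−0.47 ± 0.13) and China #8 (−0.42 ± 0.11).

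GRS1 had 12.66 and 12.68 with USA #2, 12.78 and 12.81 with USA #6, 12.70 and 12.68 with USA #7, 12.78, 12.82, 12.84 and 12.78 with China #8, 12.73 and 12.75 with Europe #11 and 12.65 and 12.71 with India #13, against 12.63, 12.70, 12.91 and 12.71 in control. The extract arrays lay within the span of the control arrays. Its log2 fold changes were −0.07 to 0.07 with an SE of 0.06 or 0.07, and it passed with no extract. The other cytosolic genes that passed with none were GUS1 (glutamate), from −0.23 to 0.12, and THS1 (threonine), from −0.05 to 0.12. Whether probes of one glycine paralog bind the other's RNA was not tested.

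**Figure D3:**
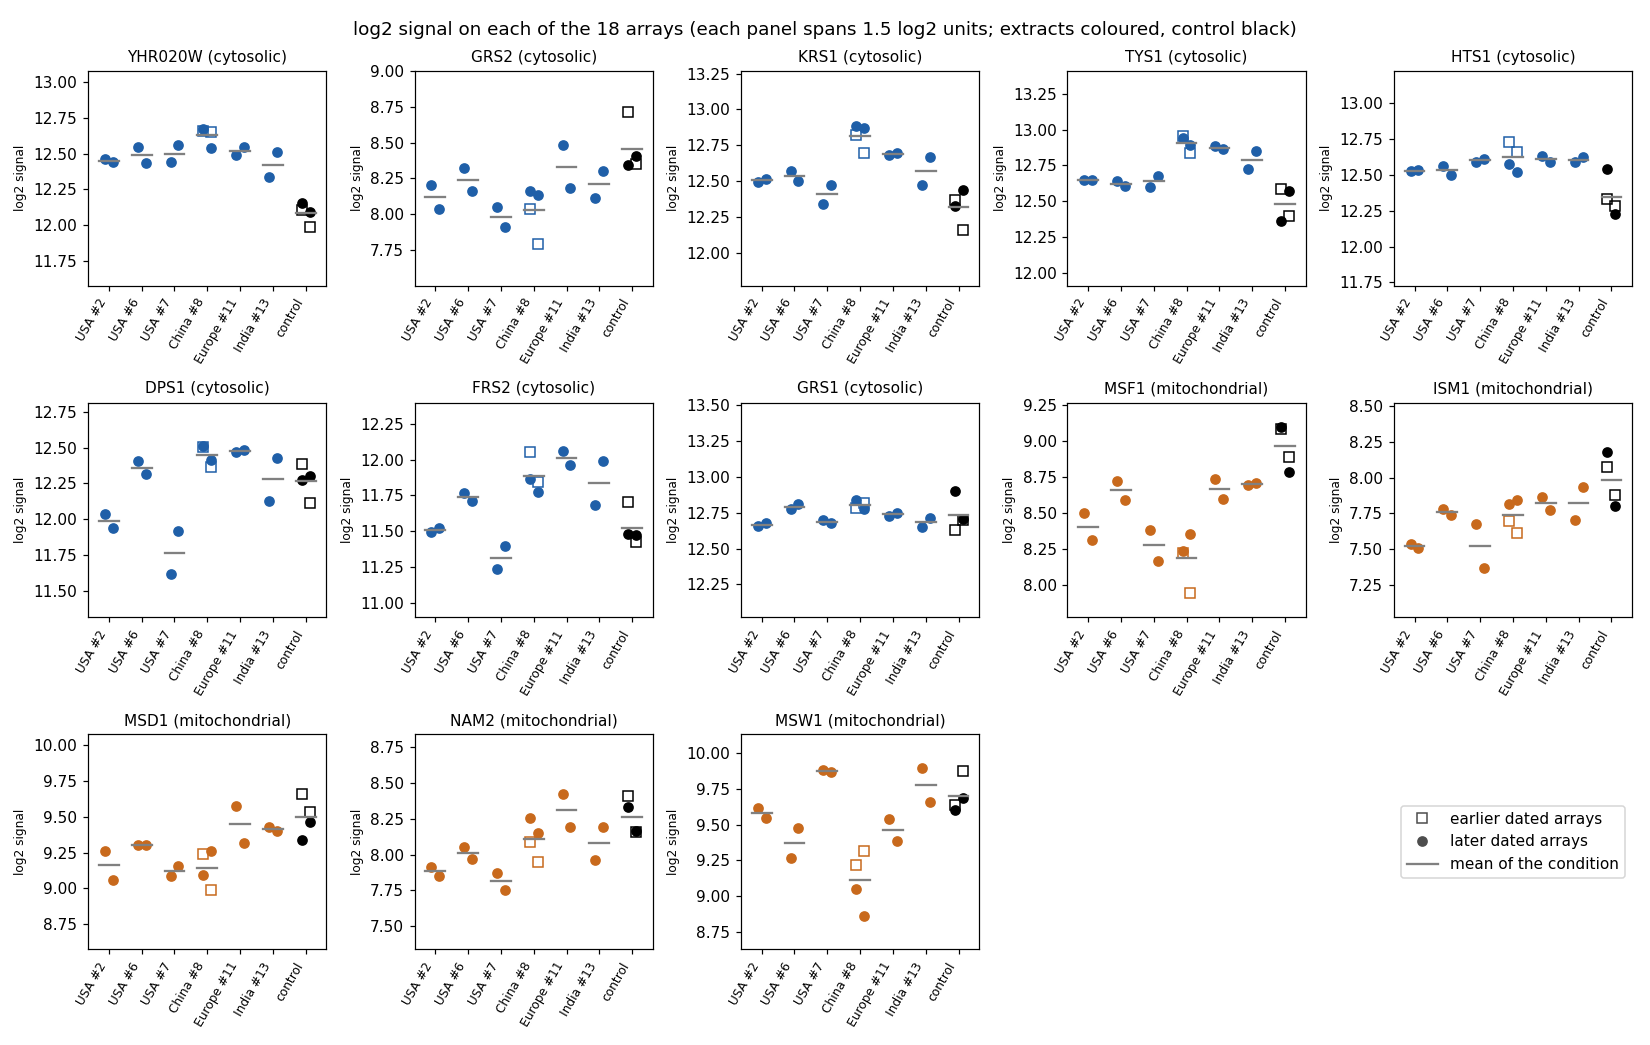
Panels give the log2 signal of 8 cytosolic (blue) and 5 mitochondrial (orange) genes on all 18 arrays, with the extracts left of the black control points, open squares for earlier and filled circles for later dated arrays, and a grey bar for the mean of each condition. All panels span an equal range, and GRS1 is shown as the paralog of GRS2. YHR020W and TYS1 lie above control on all 14 extract arrays and MSF1 below it on all 14.

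Among the mitochondrial genes, none rose with any extract and 8 fell with at least 1. With the later dated arrays alone, however, MSK1 rose with USA #7 (0.32), Europe #11 (0.31) and India #13 (0.45), and MST1 with USA #2 (0.30) and India #13 (0.30). With the title date as a block, MSK1 rose with India #13 (0.37) and MSW1 with USA #7 (0.28). For the main counts over the 6 extracts, the matching shares of all probe sets were not taken. With single extracts 4.08% to 20.4% of all probe sets rose and 2.88% to 19.9% fell. MSF1, the phenylalanyl-tRNA synthetase of the mitochondrion, had the strongest change. Its log2 signal was 8.50 and 8.31 with USA #2, 8.72 and 8.59 with USA #6, 8.38 and 8.17 with USA #7, 8.22, 7.94, 8.23 and 8.35 with China #8, 8.73 and 8.60 with Europe #11 and 8.69 and 8.71 with India #13, against 9.09, 8.89, 9.10 and 8.79 in control. All 14 extract arrays lay below all 4 control arrays. MSF1 fell by 0.78 with China #8 (SE 0.10, adjusted p = 3.63e-05, limma), by 0.69 with USA #7 and by 0.56 with USA #2, while USA #6, Europe #11 and India #13 gave −0.31, −0.30 and −0.26 and did not pass. The signal was 1.72-fold lower with China #8 than in control, and the extracts differed in the F-test (adjusted p = 0.0172).

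ISM1 (isoleucine) and NAM2 (leucine) fell with USA #2 and USA #7. Nam2 also takes part in the splicing of mitochondrial introns. ISM1 was at 7.54 and 7.51 with USA #2, 7.78 and 7.74 with USA #6, 7.67 and 7.37 with USA #7, 7.70, 7.61, 7.82 and 7.84 with China #8, 7.86 and 7.77 with Europe #11 and 7.70 and 7.94 with India #13, against 8.07, 7.88, 8.18 and 7.80 in control. NAM2 was at 7.91 and 7.85 with USA #2, 8.05 and 7.97 with USA #6, 7.87 and 7.75 with USA #7, 8.09, 7.95, 8.26 and 8.15 with China #8, 8.42 and 8.19 with Europe #11 and 7.96 and 8.19 with India #13, against 8.41, 8.16, 8.33 and 8.16 in control. For both genes the USA #2, USA #6 and USA #7 arrays lay below all control arrays, while some arrays with China #8, Europe #11 and India #13 did not. Neither gene passed with USA #6. ISM1 fell by 0.46 with either extract (SE 0.12) and NAM2 by 0.38 with USA #2 and 0.45 with USA #7 (SE 0.11). NAM2 differed among the extracts by a narrow margin (F-test adjusted p = 0.0499) and ISM1 did not pass (0.193).

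MSD1, for aspartate, fell with USA #2 (−0.34 ± 0.11), USA #7 (−0.38 ± 0.11) and China #8 (−0.35 ± 0.09). It read 9.26 and 9.06 with USA #2, 9.30 and 9.30 with USA #6, 9.09 and 9.15 with USA #7, 9.24, 8.99, 9.09 and 9.26 with China #8, 9.58 and 9.32 with Europe #11 and 9.43 and 9.40 with India #13, against 9.66, 9.53, 9.34 and 9.46 in control. The 10 arrays with USA #2, USA #6, USA #7 and China #8 all lay below the control arrays, and so, by a narrow margin, did 1 with Europe #11, while the other Europe #11 array and both with India #13 lay among them.

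A further 4 mitochondrial genes fell with China #8 only: MSW1 (tryptophan), MST1 (threonine), MSY1 (tyrosine) and MSE1 (glutamate). MSW1 stood at 9.62 and 9.54 with USA #2, 9.27 and 9.48 with USA #6, 9.88 and 9.86 with USA #7, 9.22, 9.31, 9.05 and 8.86 with China #8, 9.54 and 9.38 with Europe #11 and 9.90 and 9.65 with India #13, against 9.63, 9.87, 9.60 and 9.68 in control. The China #8 arrays were lowest apart from a USA #6 array within their span, and the USA #7 arrays were at the top of the control span. MSW1 fell by 0.59 with China #8 (SE 0.10, adjusted p = 0.000388, limma) and had 0.17 ± 0.12 with USA #7, and it had the lowest F-test p of the mitochondrial genes (adjusted p = 0.00548). MST1 fell by 0.51, MSY1 by 0.49 and MSE1 by 0.25 with China #8. With USA #7 these 3 genes gave 0.02, −0.08 and 0.01.

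Over all arrays, the 5 mitochondrial genes that passed with no extract were MSK1 (lysine), MSM1 (methionine), MSR1 (arginine, the paralog of YDR341C), SLM5 (asparagine) and DIA4 (probably serine). SLM5 had −0.31 with USA #7 and 0.15 with Europe #11, and DIA4 had −0.29 and 0.21 with the same extracts. All 13 mitochondrial genes had a log2 fold change below 0 with USA #6, from −0.33 to −0.07, although none of them passed there. Of all 5763 probe sets, 2830 were above 0 with USA #6. The mitochondrial median with USA #6 was −0.18, and −0.10 with the later dated arrays alone.

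Of the 34 calls among the genes given array by array, the YHR020W contrast over 12 extract arrays included, 12 held whichever 1 array was left out. These were all 9 with China #8 (YHR020W, GRS2, KRS1, TYS1, HTS1, FRS2, MSF1, MSD1 and MSW1), MSF1 and YHR020W with USA #7, and YHR020W with Europe #11. Of the other 22, most were lost without 1 of the 2 arrays of their extract. HTS1 with USA #7, Europe #11 and India #13 was also lost without control replicate 2 or 4, MSD1 with USA #2 without control replicate 1, 2 or 4, FRS2 with India #13 without control replicate 2, 3 or 4, and KRS1 with India #13 without control replicate 2 or 3.

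The F-test compared the 6 extracts with each other, and the control arrays entered it only through the shared estimate of the spread. It passed for 15 of the 34 genes, beside 29.4% of all tested probe sets, namely 10 of 21 cytosolic genes (CDC60, DPS1, FRS2, GLN4, ILS1, KRS1, MES1, SES1, TYS1 and VAS1) and 5 of 13 mitochondrial genes (MSF1, MST1, MSW1, MSY1 and NAM2). MES1 shows the spread among cytosolic genes, with 0.32 ± 0.11 for China #8 and −0.27 for USA #7. Without China #8 replicate 3 the count was 7, beside 18.5% of all probe sets, and without China #8 replicate 4 it was 9 (21.3%). It was also 9 without the 4 arrays that stood apart in 18S rRNA (32.4%). Without either USA #7 array fewer of the 34 genes passed, and fewer of all probe sets did.

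Cytosolic and mitochondrial genes for the same amino acid were also set side by side. With China #8 and with USA #6 the cytosolic gene had the higher log2 fold change in all 14 pairs, and the median gap within a pair was 0.55 and 0.33 log2. The count was 12 with Europe #11, 10 with USA #2, 10 with India #13 and 8 with USA #7. FRS1 and FRS2 each form a pair with MSF1, so these 2 pairs share a gene. For tyrosine the gap with China #8 came from TYS1 at 0.43 and MSY1 at −0.49, for tryptophan from WRS1 at 0.22 and MSW1 at −0.59. Serine ran the other way with Europe #11, where SES1 had −0.23 and DIA4 0.21, neither past the threshold.

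**Figure D4:**
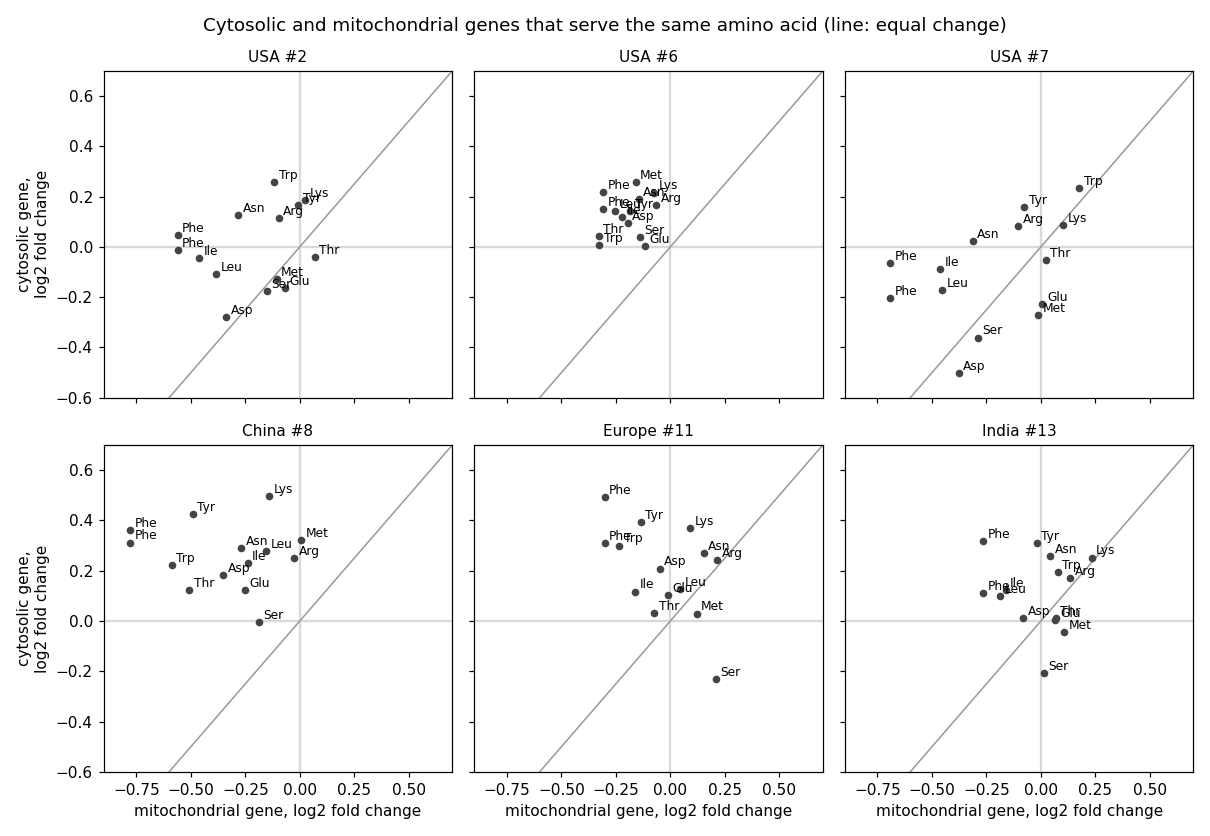
Each point is a pair of genes for 1 amino acid, with the log2 fold change of the mitochondrial gene on the x axis and of the cytosolic gene on the y axis, in 1 panel per extract. Phenylalanine appears as 2 points because its cytosolic enzyme has 2 subunit genes. All 14 points lie above the line of equal change with China #8 and USA #6, and 8 of 14 do with USA #7.

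Over the 12 extract arrays that the study's own contrast used, USA #6 left out, YHR020W alone passed the Bonferroni threshold against control, at 0.44 ± 0.06 log2 (adjusted p = 0.014, limma), beside 2.29% of all probe sets higher and 1.49% lower. This call was lost when control replicate 1, 2 or 4 was left out, without the 4 arrays that stood apart, with the later dated arrays alone and with the title number as a block (0 calls each). Under the Benjamini-Hochberg adjustment, 7 cytosolic genes rose, GRS2 fell and 3 mitochondrial genes fell, 11 of 34 in all, near the 29.9% of all probe sets called in that way. The China #8 response was also compared between the earlier and the later dated arrays by an interaction term, and no synthetase gene passed or had an unadjusted p under 0.05, while 623 of 5763 probe sets had one and 0 passed (limma).

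Genes that act beside the synthetases were read from lists. Of 6 other genes of aminoacylation, none rose with any extract, beside 4.08% to 20.4% of all probe sets. At such shares 0 of 6 genes says little. With China #8 3 of the 6 fell, beside 19.9% of all probe sets, and with USA #7 2 fell, beside 18.9%. The list's median log2 fold change was below that of the mitochondrial synthetases with USA #7 (−0.16), Europe #11 (−0.05) and India #13 (−0.07). AIM10, a mitochondrial protein related to prolyl-tRNA synthetases, fell with USA #7 (−0.45 ± 0.13) and China #8 (−0.33 ± 0.10). HER2, PET112 and GTF1 encode the mitochondrial amidotransferase that makes glutaminyl-tRNA in place of a synthetase. HER2 and PET112 fell with China #8, by 0.35 and 0.26, and GTF1 with USA #7, by 0.34. ARC1, the cofactor that binds the Mes1 and Gus1 enzymes, had −0.02 to 0.09.

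Of 12 genes of general amino acid control, 8 rose with China #8, 3 with Europe #11, 3 with India #13, 2 with USA #2, 2 with USA #7 and none with USA #6. Of all probe sets, 19.7% rose with China #8, 12.3% with Europe #11, 14.1% with India #13, 10.5% with USA #2, 20.4% with USA #7 and 4.08% with USA #6, so the count with USA #7 was below that share. GCD11, a subunit of the initiation factor eIF2, rose with China #8 (0.37), Europe #11 (0.35) and India #13 (0.25), and GCN3, a subunit of its exchange factor eIF2B, rose with every extract but USA #6. The kinase gene GCN2 fell with USA #2 (−0.37), USA #7 (−0.50) and India #13 (−0.41), while GCN4 lay between −0.01 and 0.12 and passed with none. GCN4 is controlled mainly through its translation, which these arrays do not measure. The 8 genes that rose with China #8 were GCN1, GCN3, GCD1, GCD2, GCD6, GCD7, GCD11 and SUI2. The list holds genes of unlike roles, among them the kinase, the activator and subunits of eIF2 and eIF2B. Its counts therefore do not measure the activity of the pathway.

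The 52 genes of tRNA processing, modification and export moved further than the synthetases, and most of those that passed rose. With China #8, 41 rose and none fell. The counts that rose were 25 with USA #2, 10 with USA #6, 33 with USA #7, 23 with Europe #11 and 27 with India #13, and at most 2 fell with any of these. The shares of all probe sets that rose were 19.7% with China #8, 10.5% with USA #2, 4.08% with USA #6, 20.4% with USA #7, 12.3% with Europe #11 and 14.1% with India #13. The list's median log2 fold change was 0.31 to 0.56, against −0.06 to 0.27 for the cytosolic synthetases. SMM1, a dihydrouridine synthase, rose with all 6 extracts, by 0.43 with USA #7 to 1.30 with China #8. TRM1, a tRNA guanine methyltransferase, also rose with all 6 (0.62 to 1.22), and TRM2, a tRNA uridine methyltransferase, with all but USA #6.

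**Figure D5:**
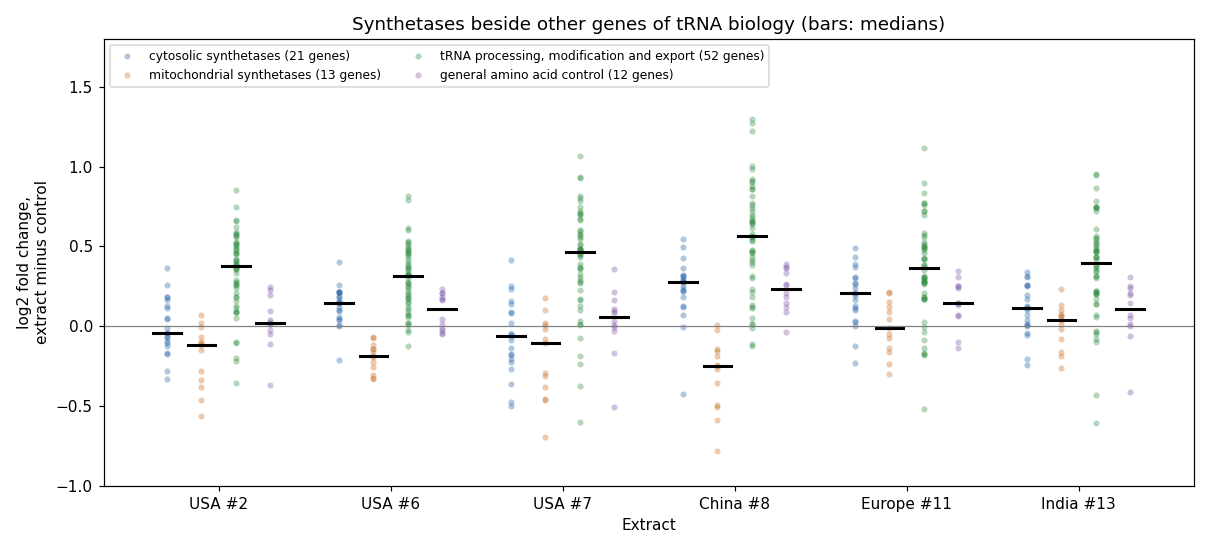
Each point is a gene and each black bar a median, on a y axis of log2 fold change against control for the 6 extracts, by list. The tRNA processing list has its median above that of the cytosolic synthetases with every extract, and of the 4 lists drawn, which leave out the 6 other aminoacylation genes, the mitochondrial synthetases have the lowest median with each extract.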

How the data were processed

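RNA was labelled and hybridized to Yeast Genome 2.0 GeneChips (Affymetrix). The authors derived 1 log2 signal per probe set and array by RMA (background correction, quantile normalization between arrays and summarization of probes) and deposited them for 5900 probe sets and 18 arrays. The sources used here give no version of RMA or of the authors' limma. Values were used as deposited. After 137 Affymetrix control probe sets were set aside, 5763 were tested. Arrays carry no counts, so their number limits the precision. The methods call the cultures biological replicates.

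Each extract was set against control in 1 model of the 7 groups over 18 arrays, fitted with limma 3.58.1 (R 4.3.3, lmFit and eBayes) with Benjamini-Hochberg adjustment, and the 6 extracts with each other by an F-test in this model. All extracts without USA #6 were compared with control under the Bonferroni correction, as the study did. Groups and title dates came from the labels. A fit without 1 of 2 arrays assumes that the lone array varies like the other groups. The models were tested on simulated data.

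The genes and lists were chosen with earlier results of these data known. All 34 genes were named. Values by array are given for the 5 cytosolic and 4 mitochondrial genes with the largest mean fold change over the extracts among those called, the 2 of lowest F-test p in each compartment and the GRS1 and GRS2 paralogs, and for each other list up to 3 genes by mean fold change, to which HER2, ARC1 and GCN4 were added after their values were seen. Gene names came from the platform annotation; YNL247W and IKI3 of the lists were not matched.

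Title numbers were checked for pairing by correlating deviations from group means. China #8 and control arrays of equal number correlated at 0.13 to 0.70, which includes the difference between title dates. Within a date the correlation was 0.75 for the earlier and 0.18 for the later arrays. Arrays of the other extracts correlated at −0.29 to 0.57, the highest being USA #2 with USA #6. These values do not settle whether the arrays were paired. China #8 and control arrays were treated as paired only in the replicate block, and the main calls come from the unpaired fit.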

Additional observations from a re-analysis of the deposited data

Results flagged for a closer look

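In 3 of 68 combinations of a gene with the China #8 or the control group, 1 of the 4 arrays lay far from the others. Chance alone flags about 1 in 20 groups. CDC60 had 12.25 log2 on China #8 replicate 3, against 12.12 to 12.14 on the other China #8 arrays. YHR020W had 12.54 on China #8 replicate 4, against 12.65 to 12.67. SLM5 had 8.85 on control replicate 1, against 8.37 to 8.44 on the other control arrays.

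The level of 15 of the 34 genes differed among the 6 extracts (limma F-test, adjusted p under 0.05), beside 29.4% of all probe sets tested.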

How the results depend on the processing

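With China #8 and control arrays paired by number, the replicate block left 23 genes called with China #8, against 22 without it, and the count for all extracts became 0. For the other extracts the numbers only name arrays. With the block 9 genes passed with USA #2, beside 38.9% of all probe sets, 3 with USA #6 (20.0%) and 14 with USA #7 (52.0%). The cytosolic minus mitochondrial median then was −0.0025 log2 with India #13, and the same with the title date as a block, under which USA #6 had 2 calls. The Bonferroni correction left 3 calls with China #8, 0 with each other extract and 0 in the F-test, and the Benjamini-Hochberg adjustment gave 11 for all extracts. A fit on the arrays of 2 groups alone, which has fewer arrays, gave 0 calls with USA #2, USA #6 and India #13, 5 with USA #7 and 2 with Europe #11.

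With the later dated arrays alone, 12 genes passed with China #8 and 0 for all extracts, and the cytosolic minus mitochondrial median was 0.0430 with USA #2, 0.21 with USA #6, −0.0630 with USA #7, 0.35 with China #8, 0.0638 with Europe #11, −0.0460 with India #13 and 0.0566 for all extracts. Without the later control and China #8 arrays it was 0.18 with USA #2, 0.44 with USA #6, 0.18 with USA #7, 0.67 with China #8, 0.36 with Europe #11, 0.26 with India #13 and 0.40 for all extracts, and 4 genes passed with USA #6, 0 for all extracts and 9 in the F-test. In this fit control and every extract but China #8 also differed in title date. The cause of these shifts was not tested.

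Leaving out 1 array at a time, the number of genes called ran from 0 to 7 with USA #2, 0 to 4 with USA #6, 3 to 10 with USA #7, 19 to 24 with China #8, 1 to 9 with Europe #11, 0 to 7 with India #13, 0 to 1 for all extracts and 6 to 16 in the F-test, and stayed at 0 for the interaction. The share of all probe sets called moved too, from 33.7% to 40.8% with China #8 and from 2.01% to 3.68% for all extracts. For each other extract it was lowest without 1 of that extract's 2 arrays. The cytosolic minus mitochondrial median ran from 0.06 to 0.15 with USA #2, 0.28 to 0.35 with USA #6, −0.0315 to 0.12 with USA #7, 0.46 to 0.57 with China #8, 0.11 to 0.32 with Europe #11, −0.0659 to 0.25 with India #13 and 0.20 to 0.36 for all extracts. No fold change of a gene given array by array changed sign under any of these settings where it had passed. Leaving out dim probe sets, equal array medians and a trended, robust prior moved no count by over 1.5 times. The most moved was Europe #11, with 11 calls under the trended, robust prior against 8, where the F-test had 17 against 15.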
